A study of Mus musculus with 58 samples.

Results

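The mitochondrial ribosomal protein genes were followed in the retina over 6 time points of the day in control and diabetic mice. They were taken as the genes whose symbol is Mrpl or Mrps followed by a number, with or without a letter from a to c. This gave 78 genes of the 52459 listed, of which 49 were Mrpl (large subunit) and 29 were Mrps (small subunit). Of the 19120 genes with a median above 4 normalized counts, 77 were members, 48 Mrpl and 29 Mrps.

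In the study, retinas of diabetic and control mice were sampled around the day to compare their expression rhythms. Total RNA of 58 retinas was depleted of ribosomal RNA and sequenced. All mice were males 4 months old and had been kept in 12 h of light and 12 h of dark from birth. Time points are given as ZT, the hours after lights on, and were ZT1, ZT5 and ZT9 in the light and ZT13, ZT17 and ZT21 in the dark. Mice were perfused with cold saline, and at the night time points the work was done in dim red light. The diabetic mice were heterozygous for Ins2Akita on a C57BL/6 background, a point mutation of the insulin 2 gene that makes the hormone misfold in the beta cells of the pancreas, and males that carry it become hyperglycemic. The controls were wild-type male littermates. There were 5, 6, 5, 5, 5 and 4 control libraries from ZT1 to ZT21, 30 in all, and 5, 5, 5, 4, 4 and 5 diabetic ones, 28 in all. A point mutation leaves no mark in gene counts, so the genotype labels could not be checked against them.

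Mitochondria carry their own ribosomes, which translate the few messenger RNAs of the mitochondrial genome into core subunits of the respiratory chain and the ATP synthase. The ribosomal RNAs come from that genome, but every protein of this ribosome is encoded in the nucleus, made in the cytosol and imported. In the retina, mitochondria are packed most densely in the inner segments of photoreceptors. The letter in a symbol does not always give the subunit, since Mrps18a and Mrps30 are built into the large one, and Mrps36 is now known as a component of the oxoglutarate dehydrogenase complex.

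The libraries held 7773117 to 22147398 counted reads, with a median of 15406440. Rod markers were abundant in each of them, with a summed level of 480563 to 736787 normalized counts. The 5 blood markers summed to 0 to 122 normalized counts in control and 0 to 190 in diabetic libraries. Their medians were 5.56 and 6.25, and 69.4 in diabetic retinas at ZT13. Of these markers, Hba-a1, Hba-a2 and Hbb-bt had a median of 0. Markers of the retinal pigment epithelium, the layer behind the retina that dissection can carry along, summed to 243 to 2697 normalized counts in control and 216 to 2847 in diabetic libraries. Lens markers exceeded 10000 normalized counts in 3 control libraries (ZT1 replicate 6, ZT17 replicate 5 and ZT21 replicate 2) and reached 38678. Counts of members called in control retinas are therefore also given without these 3 libraries. In bulk tissue, fewer cells of a type and less RNA per cell cannot be told apart.

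The promoters of the 3 members that were rhythmic in both genotypes with the smallest p-values (Mrpl3, Mrps22 and Mrpl37) are shown because ribosomal protein genes of mitochondria are known to share sites for ETS factors such as GABP, for NRF1 and for YY1 near their start sites. The windows run from 250 bases before to 50 bases after the annotated start and were taken from RefSeq on GRCm38.p6. Mrpl3 lies at chr9:105053018-105053317 on the plus strand, Mrps22 at chr9:98601630-98601929 on the minus strand and Mrpl37 at chr4:107066817-107067116 on the minus strand. Capitals mark the ETS letters CCGGAAG in Mrpl3 and Mrps22 and the YY1 letters AAGATGG in Mrpl37.
Mrpl3: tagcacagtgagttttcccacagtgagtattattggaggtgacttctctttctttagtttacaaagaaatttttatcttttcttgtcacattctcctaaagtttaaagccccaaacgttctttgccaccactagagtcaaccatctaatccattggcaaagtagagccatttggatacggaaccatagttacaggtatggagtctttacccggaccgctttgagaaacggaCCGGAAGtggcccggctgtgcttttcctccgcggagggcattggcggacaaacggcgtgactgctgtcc
Mrps22: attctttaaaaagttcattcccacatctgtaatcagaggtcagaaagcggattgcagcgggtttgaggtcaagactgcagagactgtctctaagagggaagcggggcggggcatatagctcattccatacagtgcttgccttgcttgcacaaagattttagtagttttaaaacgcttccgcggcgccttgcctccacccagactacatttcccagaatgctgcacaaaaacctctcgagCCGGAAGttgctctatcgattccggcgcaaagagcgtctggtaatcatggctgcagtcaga
Mrpl37: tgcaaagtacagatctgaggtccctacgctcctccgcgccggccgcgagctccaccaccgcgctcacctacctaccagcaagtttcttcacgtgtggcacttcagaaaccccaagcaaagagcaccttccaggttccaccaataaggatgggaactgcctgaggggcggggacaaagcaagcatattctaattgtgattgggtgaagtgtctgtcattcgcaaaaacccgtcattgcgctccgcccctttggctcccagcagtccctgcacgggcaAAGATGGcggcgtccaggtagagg
A window was found for 68 of the 77 members. The ETS letters, searched on both strands, were in 25 of these (36.8%), against 17.7% of 11936 genes above 4 normalized counts with a window. The YY1 letters were in 13 members (19.1%) against 7.88%, and the NRF1 motif, searched on both strands as GCGCA and GCGC with 1 free base between them, was also in 13 members (19.1%) against 10.4%. No motif contains another, and overlapping matches were each counted. A match is a description of the letters and not of binding. In addition, 17 of the 77 members (22.1%) had a coding gene that started within 1000 bases in the opposite direction, against 8.91% of 14233 coding genes above the same limit. Examples are Mrpl49 with Fau at 59 bases, Mrps18c with Helq at 29 bases and Mrpl54 with Apba3 at 26 bases.

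Members were expressed at moderate levels. Per kilobase of exon, their median mean level was 95.7 normalized counts, against 56.8 over all genes above the limit, 391 over 77 cytosolic ribosomal protein genes and 349.7 over 36 nuclear genes of complex I. The median was 112 per kilobase for Mrpl and 74.3 for Mrps. The highest were Mrpl49 with 451 (450.7), Mrpl34 with 382 and Mrpl54 with 353 normalized counts per kilobase, and the lowest were Mrpl23 with 26.2, Mrpl16 with 31.0 and Mrpl33 with 33.6. The members lay on 17 chromosomes and together took 0.125% to 0.154% of the counted reads of a library.

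**Figure D1:**
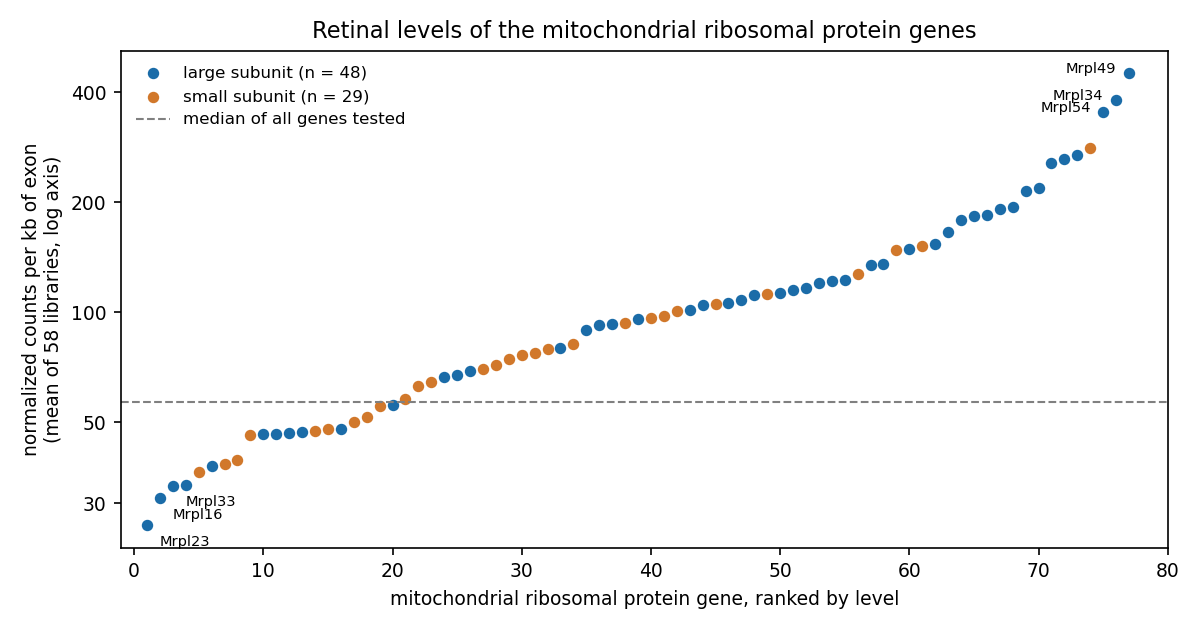
Mean level of each of the 77 members above the limit, in normalized counts per kilobase of exon on a log axis, ranked from low to high, with Mrpl and Mrps in separate colours and the median of all genes above the limit as a dashed line. The members run from 26.2 to 450.7 normalized counts per kilobase, and their median of 95.7 lies above the 56.8 of all genes.

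In mean normalized counts, not divided by length, the members ran from 49.6 to 846 with a median of 253. The spread between libraries of a genotype was modest, with a median coefficient of variation of 10.9% in control and 10.8% in diabetic retinas, so that differences of a few percent lie within it. The paralogs Mrps18a, Mrps18b and Mrps18c, which descend from 1 bacterial protein and now occupy different places in the ribosome, stood at 79.3, 55.6 and 46.1 normalized counts per kilobase. In mean normalized counts Mrps18a had 290.9 in control and 294.5 in diabetic retinas, Mrps18b 115.9 and 116.3, and Mrps18c 48.2 and 51.2. None of these 3 paralogs passed edgeR's test between genotypes, over all time points or at any one of them.

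Mrpl53 was the only member under the limit, with 5 reads over all 58 libraries. Of its 790 exon bases, 695 (88.0%) are shared with Gm42688, a gene of the same strand with a mean of 31.96 normalized counts, and whether reads that fit both genes were left out of its count was not tested. Another 7 members share at least 20% of their exon bases with a gene of the opposite strand, among them Mrps25, Mrps34 and Mrps27, and reads of both could be mixed if counting did not use strand. Named pseudogenes exist for 3 members and had means of 0 to 6.87 normalized counts.

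Diabetic and control retinas were first compared over all time points. Of the 77 members, 3 were lower in diabetic retinas by small amounts: Mrpl57, Mrpl55 and Mrpl11 passed edgeR's quasi-likelihood test after Benjamini-Hochberg adjustment, with log2 differences of -0.16 to -0.12, and no other member did. With 1 library left out, 2 to 5 members were lower, most without control ZT9 replicate 3 or ZT13 replicate 2. Mrpl54, named after its values were seen, also passed with the replicate block (log2 difference -0.17, adjusted p = 0.0407, edgeR) and with offsets for GC content and length (-0.13, adjusted p = 0.0409). The 3 were all Mrpl, and of all genes tested 2.99% were called, 1.41% lower and 1.58% higher. The number of members higher was 0 by edgeR and 0 by DESeq2. At an unadjusted p under 0.05, 1 member (Mrps10) was higher and 13 were lower, where 8.04% of all genes were higher and 7.49% lower. The log2 difference was negative for 66 of the 77 members, 44 of 48 Mrpl and 22 of 29 Mrps, against 49.4% of all genes, and its median was -0.04 against 0.00 over all genes.

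Mrpl57, a mitochondria-specific protein of the large subunit, lies on GRCm38 chr14:57826234-57829296. Its normalized counts were 179.8 at the lowest, 210.3 at the median and 260.8 at the highest in control, and 157.7, 190.7 and 232.8 in diabetic libraries. The ranges overlapped over most of their width, with means of 215.7 ± 19.99 (SD, n = 30) and 192.9 ± 19.8 (SD, n = 28). The log2 difference was -0.16 (SE 0.04, adjusted p = 0.00836, edgeR's quasi-likelihood test), and with offsets for GC content and length it no longer passed (adjusted p = 0.0801).

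Mrpl55, another large-subunit protein without a bacterial counterpart, lies on chr11:59202486-59206134. Its lowest, median and highest values were 171, 191 and 223 normalized counts in control and 134, 170 and 214 in diabetic libraries, with means of 193.4 ± 15.6 and 173.3 ± 19.7 (SD). The diabetic range again overlapped the control range but began lower. The log2 difference was -0.16 (SE 0.04, adjusted p = 0.0118, edgeR), and it passed whichever 1 of the 58 libraries was left out.

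Mrpl11, which forms the base of the stalk where translation factors bind, lies on chr19:4962147-4966999. Its lowest, median and highest values were 253, 321 and 352 normalized counts in control and 233, 282 and 344 in diabetic libraries, with means of 310.7 ± 26.9 and 285.5 ± 28.6 (SD). The log2 difference of -0.12 (SE 0.04, adjusted p = 0.0401, edgeR) stood close to the threshold. It failed in 26 of the 58 fits that left out 1 library (adjusted p from 0.0223 to 0.0639) and without the 3 lens-rich control libraries (adjusted p = 0.0917).

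**Figure D2:**
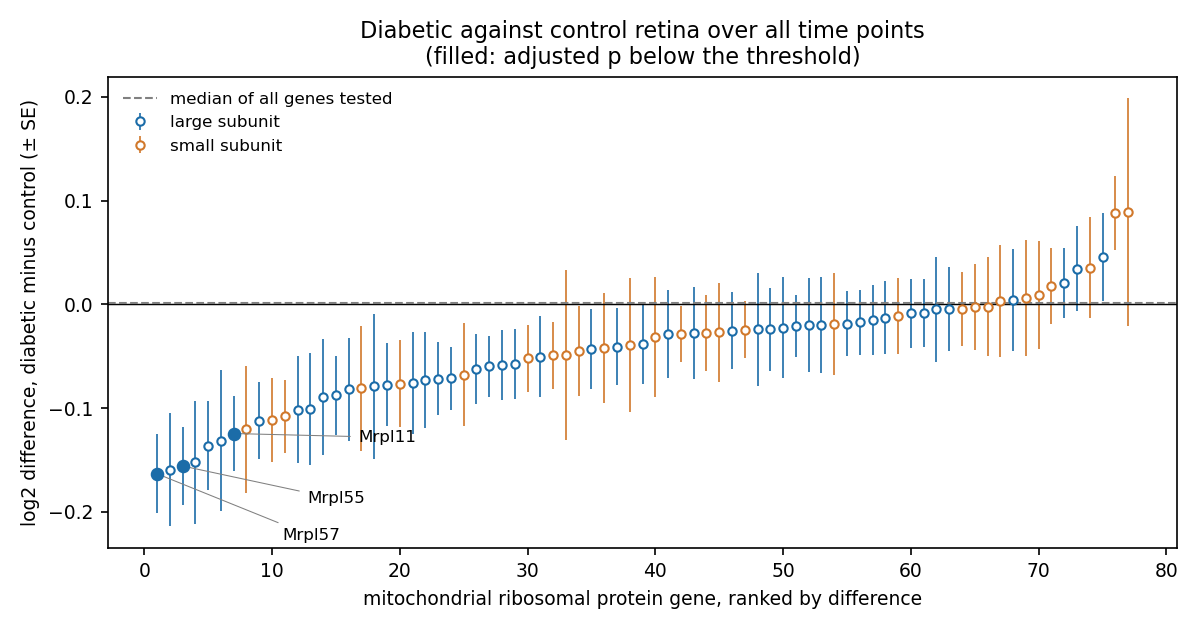
Log2 difference of diabetic minus control over all time points for each of the 77 members, ranked, with bars of 1 SE and a line at 0, and with the 3 members past an adjusted p of 0.05 filled (Mrpl57, Mrpl55 and Mrpl11). Of the 77 points, 66 lie under 0, and the filled ones lie between -0.16 and -0.12.

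With time point as an added factor, 6 members were lower, Mrpl49, Mrpl33 and Mrps31 beside those 3, and 2.33% of all genes were. The libraries' summed level of pigment epithelium markers had a median of 1341 normalized counts in the control and 872 in the diabetic group. Rod markers had a median sum of 593393 in the control and 566114 in the diabetic group, lower in the diabetic one at each of the 6 time points, and cone markers 11689 and 10968. Bipolar cell markers had medians of 14507 and 13730 and microglia markers of 284 and 254. The part of these in the differences was not tested. Over these groups, the share of counted reads taken by all members was 0.143% ± 0.0052 in control and 0.139% ± 0.0066 (SD) in diabetic libraries.

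At single time points, the number of members called between genotypes was 0 at each of the 6, by edgeR and by DESeq2. All genes tested gave few calls as well, namely 0.0105% (ZT1), 0.0209% (ZT5), 0.00523% (ZT9), 0% (ZT13), 0.167% (ZT17, with 0.0628% higher and 0.105% lower) and 0% (ZT21). At an unadjusted p under 0.05, from ZT1 to ZT21, 3, 3, 2, 2, 11 and 6 of the 77 members were lower, where 2.42%, 3.56%, 2.30%, 1.66%, 4.45% and 2.20% of all genes were, and 0 members were higher at each time point. The counts in the light and at ZT13 were near those shares. The median log2 difference of the members was -0.04, -0.03, -0.01, -0.02, -0.08 and -0.06, where the medians of all genes lay between -0.0039 and 0.0072. Of the 77 members, 52, 53, 47, 50, 63 and 55 were negative, against 47.4%, 49.9%, 49.7%, 50.6%, 48.0% and 51.2% of all genes. Without control ZT17 replicate 3 the median at ZT17 was -0.05, so no order of the time points is drawn from these medians.

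The smallest p-value at ZT17 belonged to Mrps35, a mitochondria-specific protein of the small subunit (chr6:147042764-147073991). The control libraries held 309.8, 314, 325.5, 336 and 356 normalized counts and the diabetic ones 229, 274, 279 and 283, with no overlap. The log2 difference was -0.30 (SE 0.09, adjusted p = 0.18, edgeR), and with offsets for GC content and length it passed (adjusted p = 0.0438), as did Mrpl54 (adjusted p = 0.0496). The share of all genes called with the offsets is not given here. Mrpl11 followed with a log2 difference of -0.26 (adjusted p = 0.218) and Mrpl48 with -0.19 (adjusted p = 0.22).

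At ZT21, Mrpl57 had the smallest p-value, with 219, 226, 239.8 and 245 normalized counts in control and 178, 185, 189.97, 190.4 and 219.7 in diabetic libraries. Only the highest diabetic library reached the control range, and the log2 difference was -0.28 (SE 0.10, adjusted p = 0.711, edgeR). Mrpl55 (-0.24) and Mrpl10 (-0.22), the latter the stalk protein to which Mrpl12 binds, came next.

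In the light, the smallest p-values at ZT1 were those of Mrpl11 (log2 difference -0.23, adjusted p = 0.65, edgeR), Mrps30 (-0.21) and Mrpl20 (-0.20). At ZT5 they were those of Mrps31 (-0.19), Mrpl55 (-0.20) and Mrpl33 (-0.24), and at ZT9 those of Mrpl55 (-0.21), Mrpl10 (-0.20) and Mrps10 (0.16). At ZT13, just after lights off, they were those of Mrps2 (-0.22), Mrps31 (-0.19) and Mrpl21 (0.13). Mrpl55 was among the 3 smallest at ZT5, ZT9 and ZT21.

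Midnight (ZT17) was then compared with midday (ZT5) within each genotype. Retinas of ZT17 were collected in dim red light, so time of day and handling light cannot be told apart. In control retinas 6 members fell at midnight, led by Mrpl3 and Mrps22, and 5 rose, led by Mrpl14. In diabetic retinas Mrpl3 and Mrps27 fell and Mrpl14 rose. In control, 7.42% of all genes tested rose and 7.66% fell, and in diabetic retinas 3.63% and 3.73% (7.36% in either direction), so the 5 and 6 of 77 members in control (6.49% and 7.79%) lay close to the share of all genes. In diabetic retinas it was 1 and 2 of 77 (3.90% in either direction), and the number lower was 5 without ZT5 replicate 4 or ZT17 replicate 1. At an unadjusted p under 0.05, 17 of 77 members passed in each genotype, where 30.9% of all genes did in control and 21.3% in diabetic retinas, so whether the members' share lay near or under that of all genes depended on the threshold. Of the 17 in diabetic retinas 13 were lower, where 10.8% of all genes were. The members' median log2 difference was -0.01 in control, against -0.03 over all genes, and -0.06 in diabetic retinas, against -0.01 over all genes.

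Mrpl3 lies near the peptidyl transferase centre of the large subunit and is encoded on chr9:105053239-105079888. Control libraries held 466 at the lowest, 485 at the median and 545 normalized counts at the highest at ZT5, and 373, 379.8, 389.9, 429.8 and 440.2 at ZT17. Diabetic libraries held 438, 484, 494, 508 and 531 at ZT5 and 301, 383, 399 and 435 at ZT17. In both genotypes each midnight library lay under each midday library. The log2 difference was -0.31 (SE 0.07, adjusted p = 0.00149, edgeR) in control and -0.38 (SE 0.08, adjusted p = 0.000746, edgeR) in diabetic retinas, and both passed with any 1 library left out.

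Mrps22, a mitochondria-specific protein of the small subunit in which mutations cause mitochondrial disease in people, is encoded on chr9:98588730-98601660. Control libraries held 191, 214 and 227 normalized counts (lowest, median, highest) at ZT5 and 152, 153, 153, 182 and 185 at ZT17, with no overlap. Diabetic libraries held 174, 196, 199, 235 and 242 at ZT5 and 165, 166, 180.4 and 189 at ZT17, and these overlapped. The log2 difference in control was -0.38 (SE 0.09, adjusted p = 0.00203, edgeR), and in diabetic retinas it did not pass.

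Mrpl14, which lies at the face that meets the small subunit, rose in both genotypes and is encoded on chr17:45686322-45698495. Control libraries held 152, 169.6 and 178 normalized counts (lowest, median, highest) at ZT5 and 187, 197, 210.03, 219 and 239.98 at ZT17, with no overlap. Diabetic libraries held 149, 154, 158, 173 and 182 at ZT5 and 170.4, 204, 209 and 248 at ZT17. The lowest of the midnight libraries lay within the midday range there. The log2 difference was 0.32 (adjusted p = 0.017, edgeR) in control and 0.33 (SE 0.10, adjusted p = 0.0375, edgeR) in diabetic retinas. The diabetic call was lost without ZT5 replicate 2, 3 or 5 or ZT17 replicate 1, 3 or 5 and under 3 other settings. The control call was lost without control ZT17 replicate 3 (adjusted p = 0.0897) and with offsets for GC content and length (log2 difference 0.12, adjusted p = 0.336). Mrpl14 shares 11.2% of its exon bases with Tmem63b on the opposite strand, which had a mean of 2431 normalized counts, and whether reads of Tmem63b entered its count was not tested.

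Mrps27, a protein with pentatricopeptide repeats that binds RNA on the small subunit, passed the threshold in diabetic retinas and not in control (chr13:99344786-99415562). Its diabetic libraries held 214, 216.5, 226, 226 and 260.4 normalized counts at ZT5 and 167, 171, 185 and 189 at ZT17, with no overlap. Its control libraries held 185, 215 and 230.2 (lowest, median, highest) at ZT5 and 184, 195, 198, 217 and 218 at ZT17, which overlapped. The log2 difference in diabetic retinas was -0.37 (SE 0.08, adjusted p = 0.0012, edgeR).

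The other control calls were Mrpl13, Mrpl33, Mrpl1 and Mrpl37, which fell, and Mrpl34, Mrps12, Mrpl49 and Mrpl28, which rose, with log2 differences from -0.34 to -0.16 and from 0.26 to 0.45. Apart from Mrpl13 they are named after their values were seen. Mrpl13 (log2 difference -0.28, adjusted p = 0.0128, edgeR) failed without control ZT17 replicate 1 (adjusted p = 0.077) and with offsets for GC content and length (adjusted p = 0.495). Each of these others lost its call under some setting as well. Without the 3 lens-rich libraries, 5 members rose and 4 fell in control. With any 1 library left out, 0 to 6 rose and 2 to 7 fell there, fewest without ZT5 replicate 1, 2 or 6 or ZT17 replicate 1 or 3. Beside these calls, pigment epithelium markers summed to 322 to 1249 normalized counts at ZT5 and 1019 to 1969 at ZT17 in control, and to 216 to 305 and 716 to 1549 in diabetic retinas. Müller glia markers summed to 39642 to 44840 at ZT5 and 48024 to 53900 at ZT17 in control, and to 37057 to 49127 and 46236 to 55443 in diabetic retinas. Bipolar cell markers also lay higher at ZT17, with 13426 to 14808 and 16760 to 18530 in control and 11958 to 14804 and 15351 to 17469 in diabetic retinas. Endothelial markers lay lower at ZT17 in control, with 3367 to 3701 at ZT5 and 3033 to 3286 at ZT17. With some overlap, control cone markers were also lower at ZT17 (11599 to 12431 and 10526 to 11649) and microglia markers higher (236 to 289 and 277 to 357). In diabetic retinas, cornea and ciliary markers summed to 56.0 to 167 at ZT5 and 145 to 340 at ZT17. The part of these in the differences was not tested.

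**Figure D3:**
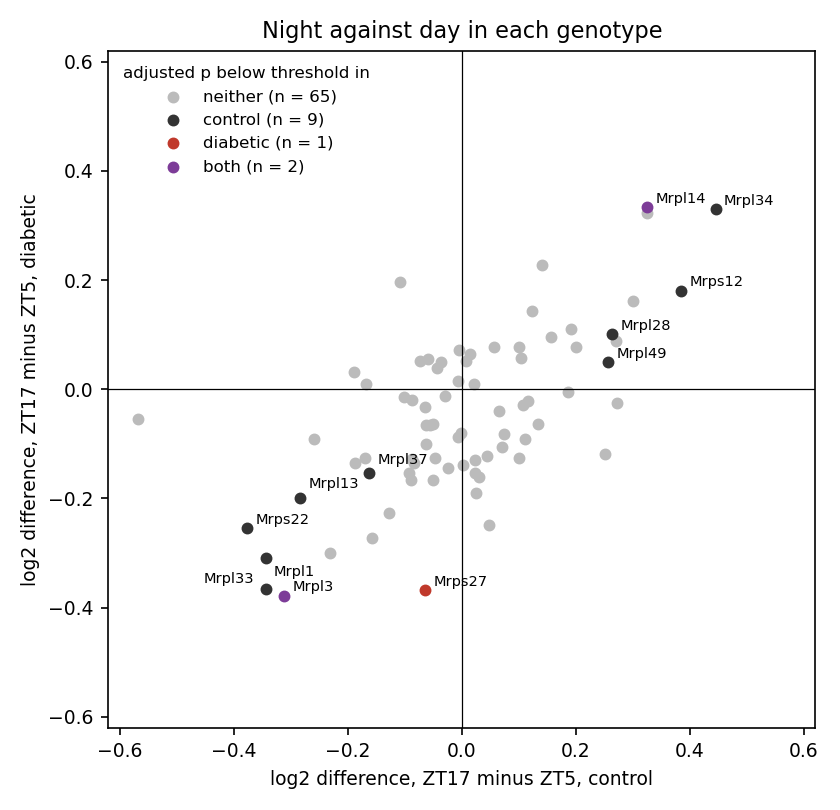
Log2 difference of ZT17 minus ZT5 for the 77 members, control on the horizontal and diabetic on the vertical axis, with lines at 0. Members past an adjusted p of 0.05 are marked by genotype, 9 in control alone, 1 in diabetic alone and 2 in both (Mrpl3 at the lower left and Mrpl14 at the upper right), and 65 in neither.

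The difference between the genotypes' midnight to midday changes was itself tested. The number of members called was 0 by edgeR and 0 by DESeq2, as for all genes (0%). At an unadjusted p under 0.05 there were 2 of 77 members, where 3.83% of all genes passed. Mrps27 had a difference of log2 differences of -0.30 (95% interval -0.51 to -0.10, adjusted p = 1.00, edgeR) and Mrps35 of -0.30 (adjusted p = 1.00), followed by Mrpl54 with -0.37. A different midnight change in diabetic retinas was therefore not shown for Mrps27 or any other member.

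Variation over the 6 time points was also tested without assuming a wave. In control 3 members varied, Mrps22 (adjusted p = 0.00458, edgeR), Mrpl3 (adjusted p = 0.0109) and Mrpl14 (adjusted p = 0.0461), where 9.06% of all genes did. Mrpl14 no longer passed without the 3 lens-rich libraries (adjusted p = 0.0502), without a filter (adjusted p = 0.0936) or with offsets for GC content and length (adjusted p = 0.15), and Mrpl3 did not pass without a filter (adjusted p = 0.0515). The control count was 6 with the replicate block and 5 with the offsets. In diabetic retinas 8 varied, where 10.2% of all genes did, with the smallest p-values for Mrps2 (adjusted p = 0.000242, edgeR), Mrpl3 (adjusted p = 0.0038) and Mrpl21 (adjusted p = 0.00658). That count was 5 without ZT17 replicate 4 or 5 and 2 without a filter. Mrps2, a small-subunit protein with a bacterial counterpart, was highest at ZT9, with 328 to 411 normalized counts in diabetic libraries, and lowest at ZT13, with 238 to 293. These 2 time points did not overlap, but they were picked as the extremes of 6. Its fitted peak there was at ZT4.87, and in control it did not pass (adjusted p = 0.0991, edgeR). Between the same libraries, bipolar cell markers (12085 to 13338 and 14037 to 15963) and cornea and ciliary markers (91.4 to 177 and 234 to 373) did not overlap either. The other marker sums overlapped, and the part of these markers was not tested.

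Rhythms of 24 h were called with an empirical JTK test, which compares the rank order of the libraries with waves of 6 phases and 5 widths and takes its p-value from 1000000 shuffled series. To be called rhythmic, a member needed an unadjusted permutation p under 0.05 and a highest library more than 25% above its lowest. This fold limit excluded no member with such a p in either genotype, so the members' calls rest on the unadjusted p. In control 11 of 77 members were rhythmic (14.3%), where 21.8% of all genes were, and in diabetic retinas 18 (23.4%), where 23.9% were. With the fold taken between the highest and lowest time point mean in place of single libraries, 5 members in control (6.49%) and 7 in diabetic retinas (9.09%) were rhythmic, where 13.2% and 14.2% of all genes were. After adjustment over all genes, 4 members passed in control and 6 in diabetic retinas, where 8.23% and 9.8% of all genes did. The control count rose to 18 without ZT9 replicate 4, and the adjusted diabetic count was 2 and 3 without ZT17 replicate 3 and 4. Without the 3 lens-rich libraries 13 were rhythmic in control, 3 after adjustment. Without ZT17, 7 and 11 were rhythmic, and after adjustment 0 and 2.

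Both lists held 7 members, 63.6% of the control and 38.9% of the diabetic list, while over all genes 54.4% and 49.7% were shared and 11.9% of genes were rhythmic in both. With the fold between time point means the shared members numbered 3 (Mrps22, Mrps9 and Mrpl33), where 6.23% of all genes were rhythmic in both. Another 4 were called in control alone and 11 in diabetic retinas alone. These lists follow from a threshold in each genotype and do not show a difference between them. Differential rhythm, tested as genotype by cosine and sine terms, gave 0 members by edgeR, 0 by DESeq2 and 0 by a rank-based regression, as for all genes (0% by edgeR). At an unadjusted p under 0.05 it gave 2, Mrps35 and Mrpl21 (adjusted p = 1.00 for both, edgeR), and Mrpl54 came next. At that threshold 3.44% of all genes passed, so 2 of 77 members is no more than the share of all genes.

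Of the 7 shared members, 5 peaked in the light and 2 in the dark in both genotypes. Mrpl3 peaked at ZT7.06 ± 0.76 h (SE) in control and ZT5.79 ± 0.70 h in diabetic retinas, with relative amplitudes of 9.72% and 10.7% (permutation p = 0.00141 and 0.000562). Its control call was lost with the fold between time point means, which was 1.24 and so just under the limit. Mrps22 peaked at ZT5.96 ± 0.82 h and ZT4.66 ± 1.02 h, with relative amplitudes of 11.8% and 9.87% (permutation p = 0.000202 and 0.00271). Its diabetic call was lost without ZT17. Both therefore had their highest levels around midday in both genotypes, and the gap between genotypes was smaller than the sum of the 2 standard errors. That comparison is not a test of a difference.

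Mrpl37, a mitochondria-specific protein of the large subunit (chr4:107055874-107066868), peaked at ZT6.99 ± 1.01 h in control and ZT8.04 ± 1.12 h in diabetic retinas, with amplitudes of 5.38% and 7.16%. Mrpl33 peaked at ZT5.43 and ZT6.10 and Mrps9, a protein of the small-subunit head with a bacterial counterpart, at ZT9.37 and ZT7.84. The night-peaking ones were Mrpl55, at ZT18.1 ± 1.19 h and ZT17.0 ± 1.24 h, and Mrpl51, at ZT18.8 ± 1.22 h and ZT15.0 ± 1.21 h. For Mrpl51 the gap (-3.80 h, diabetic minus control) was larger than the sum of its standard errors. Its differential rhythm did not pass (unadjusted p = 0.148, edgeR). Mrpl37 and Mrpl33 peaked later in diabetic retinas, and the other shared members earlier. Mrpl37, Mrps9, Mrpl55, Mrpl51 and Mrpl33 did not pass after adjustment in either genotype (adjusted p from 0.0721 to 0.178), and each lost its call in 1 genotype or both under some setting.

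**Figure D4:**
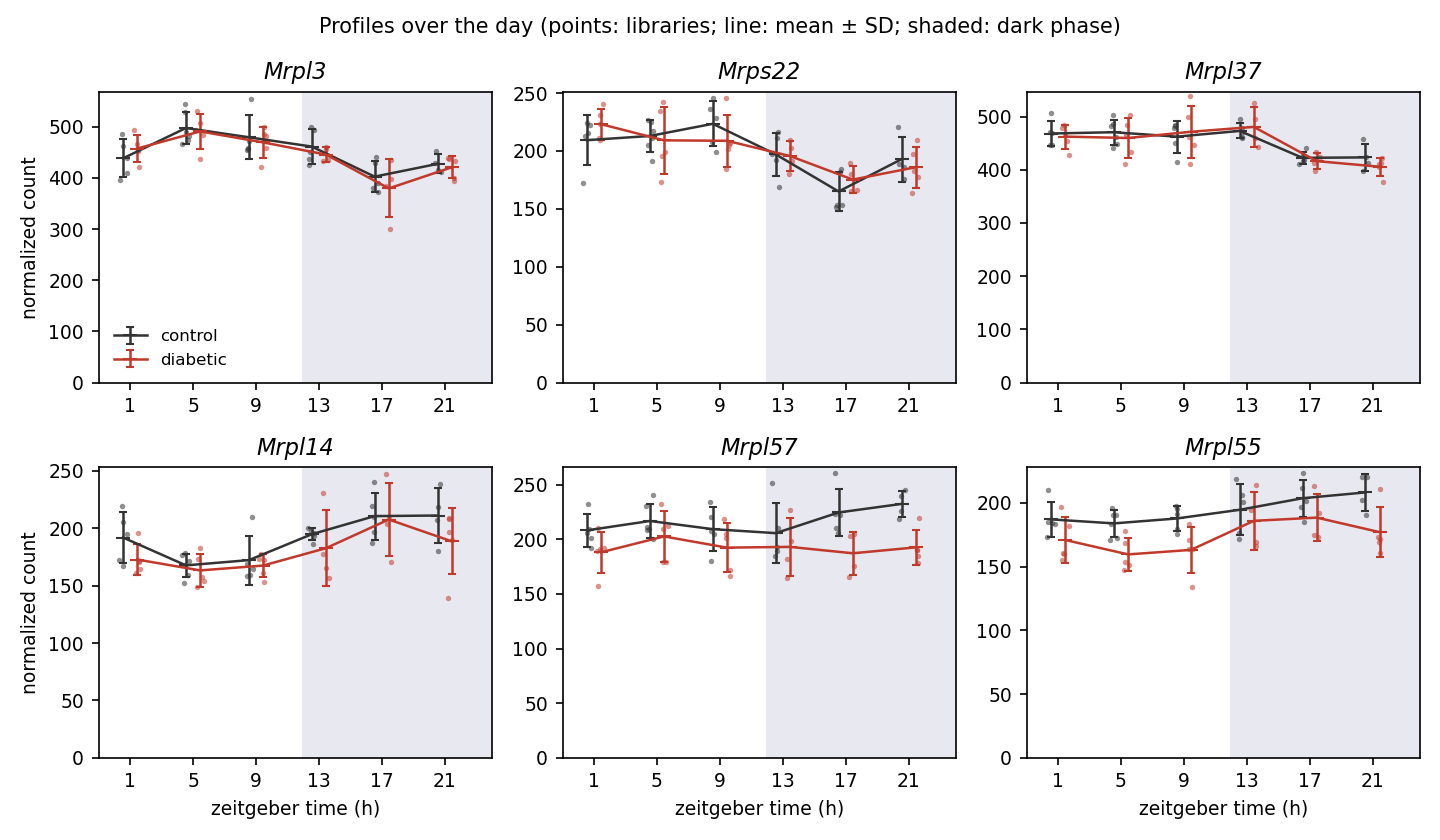
Normalized counts of Mrpl3, Mrps22, Mrpl37, Mrpl14, Mrpl57 and Mrpl55 over the 6 time points in control and diabetic retinas, with 1 point a library, the group mean and bars of 1 SD, and the dark hours shaded. Mrpl3 and Mrps22 are high in the light, Mrpl14 is high in the dark, and the diabetic means of Mrpl57 and Mrpl55 lie under those of control at each time point.

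Beyond the shared ones, Mrpl14 had the second smallest p-value in control (permutation p = 0.000408, adjusted p = 0.0107) and peaked at ZT18.7 ± 0.72 h with an amplitude of 12.4%, the largest of the rhythmic members there. In diabetic retinas Mrps27 had the smallest (permutation p = 0.000308, adjusted p = 0.00833), with a peak at ZT4.69 ± 0.74 h and an amplitude of 9.73%. Mrps35 and Mrpl48 were tied next after Mrpl3 (permutation p = 0.00195, adjusted p = 0.0262), with peaks at ZT7.25 and ZT8.97, and Mrpl48 was not called with the fold between time point means.

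In control 7 of the 11 rhythmic members peaked in the light, between ZT5.43 and ZT9.37, and 4 in the dark, between ZT18.1 and ZT19.6. In diabetic retinas 16 of 18 peaked in the light, between ZT3.52 and ZT8.97, and 2 in the dark, between ZT15.0 and ZT17.0. As shares, 63.6% and 88.9% of rhythmic members peaked in the light, against 50.8% and 48.2% of all rhythmic genes. Over all 77 members, rhythmic or not, 54.5% in control and 71.4% in diabetic retinas had their fitted peak in the light, against 52.8% and 50.9% of all genes. Amplitudes were small, with a median over all 77 members of 4.07% and 4.45% of the mean level in control and diabetic retinas, against 7.07% and 7.26% over all genes. The rhythmic members ranged from 5.38% to 12.4% in control and from 5.04% to 10.9% in diabetic retinas.

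**Figure D5:**
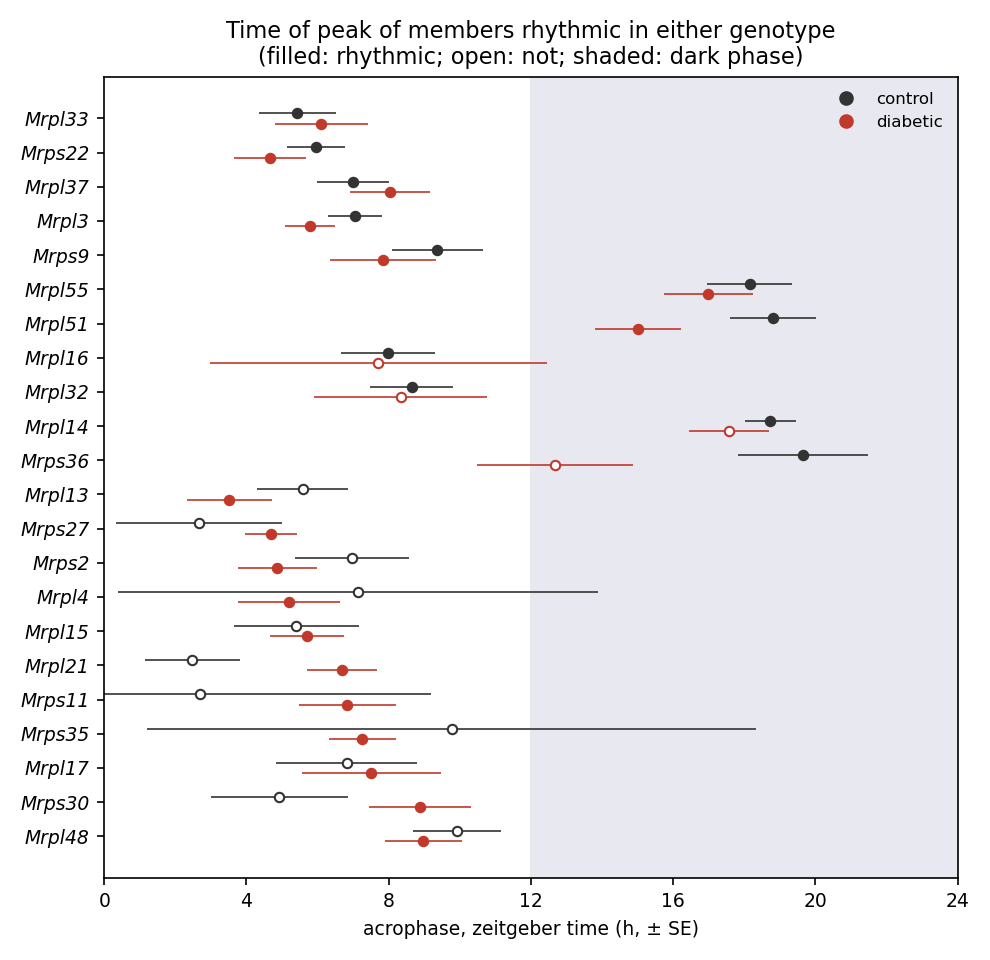
Time of the fitted peak (acrophase, in hours after lights on) of the 22 members rhythmic in either genotype, with control and diabetic in separate colours, filled points where the member was rhythmic and bars of 1 SE, which are cut at the axis where they pass 0 h. Most filled points lie between ZT3.52 and ZT9.37, and the others between ZT15.0 and ZT19.6.

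Single pairs of members correlated only weakly over the libraries. After each library's deviation from its group mean was taken, the median pairwise Pearson correlation over the 58 libraries was 0.086 among members, 0.548 among cytosolic ribosomal protein genes and 0.416 among complex I genes. A mean over many genes holds less of each gene's own noise, so correlations between list means cannot be ranked against these. Members also had a lower median level per kilobase (95.7) than the cytosolic ribosomal protein genes (391) and the complex I genes (349.7). The part of counting noise in the lower pairwise value of the members was not tested. The mean of the members correlated with those of both lists, with r = 0.866 (rho = 0.845) with the cytosolic ribosomal proteins and r = 0.894 (rho = 0.881) with complex I, and 0.846 and 0.880 without the 2 farthest libraries. With the mean of the messenger RNAs of the mitochondrial genome, which these ribosomes translate, it correlated at -0.258 (rho = -0.164). Its correlation with depth was 0.244 (rho = 0.287). These points share libraries and their scaling, and the values are a description.

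Within the list, the mean of Mrpl and the mean of Mrps correlated at 0.798 (rho = 0.75). The members nearest to the mean of the others were Mrpl52 (r = 0.73), Mrpl43 (r = 0.66) and Mrpl2 (r = 0.64). Those that ran against it were Mrps9 (r = -0.48), Mrps18c (r = -0.36) and Mrpl1 (r = -0.32). These 6 are named after their values were seen. Among 19043 other genes, the highest correlations of log2 normalized counts with the members' mean over the 58 libraries were those of Rpl10a (0.796), a cytosolic ribosomal protein, Unc119 (0.793), a photoreceptor trafficking protein, and Aurkaip1 (0.787), itself a protein of the small mitochondrial subunit. The lowest were those of Adgrb3 (-0.768), Gm36952 (-0.765) and Gm37077 (-0.758).

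Other genes of mitochondrial translation were counted from lists. Of 5 ribosomal proteins with other names, Gadd45gip1, a large-subunit protein at the exit of the peptide tunnel, rose at midnight in control (log2 difference 0.41, adjusted p = 0.0235, edgeR), and Ptcd3, a small-subunit protein with pentatricopeptide repeats, fell (-0.37, adjusted p = 0.0451). Ptcd3 was also rhythmic in both genotypes, with peaks at ZT6.34 and ZT5.78, but passed in neither after adjustment (adjusted permutation p = 0.125 and 0.0946). Over all genes, 7.42% rose and 7.66% fell at midnight in control, and 11.9% were rhythmic in both genotypes.

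Of 24 genes for ribosome assembly, 3 fell and 0 rose at midnight in control and 5 fell and 0 rose in diabetic retinas. Over all genes, 7.66% fell and 7.42% rose in control and 3.73% and 3.63% in diabetic retinas. The smallest p-values in control were those of Trub2 (log2 difference -0.38), a pseudouridine synthase, Fastkd2 (-0.69), an RNA-binding protein of mitochondrial RNA granules, and Gtpbp10 (-0.59), a GTPase of large-subunit assembly. In diabetic retinas they were those of Trub2 (-0.40) and of the GTPases Mtg1 (-0.48) and Mtg2 (-0.41). Of these 24, rhythms were called for 9 in control and for 11 in diabetic retinas, each with its peak in the light. For comparison, 21.8% and 23.9% of all genes were rhythmic, and 50.8% and 48.2% of those peaked in the light.

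Of 15 translation factors, Guf1 (log2 difference -0.46) fell at midnight in control and Gfm1 (-0.18) and Tsfm (-0.35), both elongation factors, in diabetic retinas, with 6 and 3 of 15 rhythmic. Of 14 regulators of mitochondrial biogenesis, Tfb2m, the initiation factor of the mitochondrial RNA polymerase, fell in both genotypes (-0.48 and -0.34, adjusted p = 0.000594 and 0.0385, edgeR), with 4 and 5 of 14 rhythmic, all to be read against the same shares of all genes. None of the 7 messenger RNAs of the mitochondrial genome above the limit, of 13, passed in either midnight comparison, by edgeR's adjusted p. Of its 2 ribosomal RNAs, which the library preparation removes in part, mt-Rnr1 was higher at midnight in diabetic retinas (2.63, adjusted p = 0.0104, edgeR).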

How the data were processed

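Total RNA of 58 retinas was sequenced after depletion of ribosomal RNA. The authors aligned reads with STAR 2.7.4a to GRCm38.p5 with Gencode M15 and counted them with HTSeq 0.11.1, and deposited whole-number counts per gene without normalization or filtering. The strand setting of the counting is not given in the sources used here. The submitters' processing notes also name FastQC and DESeq2 1.26.0. Each column was matched to its genotype, ZT and replicate by its title. Each library was 1 retina, and the study's methods call replicates biological.

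Genes with a median above 4 normalized counts over all libraries were kept (19120). Differential expression was tested on the counts with edgeR's quasi-likelihood test (edgeR 4.0.16, TMM, R 4.3.3), 1 group per genotype over all time points and otherwise 12 groups in 1 fit, with Benjamini-Hochberg adjustment over all genes and a threshold of 0.05. Log2 fold changes are edgeR's, with their standard errors. Levels and rhythms used counts divided by DESeq2 1.42.0 size factors. Rhythms were called with a re-implemented empirical JTK_CYCLE test (24 h, 6 phases and 5 widths in steps of 4 h, 1000000 shuffles, or 200000 for alternatives), and acrophases came from a least-squares cosine. Python 3.11.15 with numpy 2.4.6, scipy 1.17.1, pandas 2.3.3, numba 0.67.0 and matplotlib 3.10.9 was used. Gene coordinates and exon lengths are those of Gencode M21 on GRCm38, to which all 78 members matched, and levels per kilobase use the length of all exons of a gene. Sequences are those of RefSeq.

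The members and lists were chosen with earlier results of these data known. Named members are the 3 with the smallest p in each comparison, those past the threshold between genotypes, those rhythmic in both genotypes, the 3 highest and lowest per kilobase, those under the limit and the Mrps18 paralogs. Of other genes, at most 3 per list and comparison are named, and the 3 with the highest and lowest correlation with the members' mean. Alternatives were TMM against size factors, DESeq2 in place of edgeR, other filters, another definition of the fold, offsets for GC content and length, time point as a factor, a replicate block, each time point or library left out, and, chosen after seeing the data, the 3 lens-rich control libraries left out. Simulated data were used to try edgeR's tests of genotype over all time points and of differential rhythm. In control groups they were also used for midnight against midday and for variation over time. The JTK test and the rank-based regression were tried as well. Genotype tests at single time points, midnight and time tests in diabetic retinas, the difference of midnight changes and DESeq2 were not. No 2 libraries of a group, over 113 pairs, agreed within sampling noise (smallest chi-square 1.94 per degree of freedom).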

Additional observations from a re-analysis of the deposited data

Results flagged for a closer look

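In 12 of the 180 groups checked, over 15 members, the highest or lowest library stood farther from the nearest of the others than Dixon's 95% limit allows. Chance alone gives about 1 in 20 groups. In control retinas, Mrpl3 was highest at ZT9 in replicate 3, with 555 normalized counts against 472 in the next library. Mrpl14 was highest at ZT9 in replicate 4, with 209.7 against 169 normalized counts, and ZT9 replicate 4 was also the library farthest from its group over all genes. The lowest libraries that stood apart in control were ZT1 replicate 4 for Mrps22 (172 against 213 normalized counts), ZT13 replicate 1 for Mrps27 (170.01 against 208), ZT17 replicate 4 for Mrpl11 (294 against 321) and ZT21 replicate 1 for Mrpl13 (224 against 269).

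In diabetic retinas, Mrps27 was highest at ZT5 in replicate 1, with 260.4 against 226 normalized counts, and at ZT9 in replicate 3, with 235 against 205. Its call at midnight against midday held without ZT5 replicate 1, as it did without any other library. At ZT21, replicate 2 was the lowest for Mrpl14 (139 against 189.6 normalized counts) and the highest for Mrps9 (418 against 319) and Mrpl33 (272 against 211), and replicate 3 was the highest for Mrpl55 (211 against 173). No library was removed for these values.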

How the results depend on the processing

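No called value changed direction under any alternative. Of the members that passed between genotypes, Mrpl55 passed under all 8 alternatives and Mrpl57 under 7, and the lower members numbered 6 with time point as a factor. With offsets for GC content and length, 2 members were called at ZT17. Some counts under alternatives, here and above, have no share of all genes beside them. Such counts do not show whether members moved apart from all genes. For midnight against midday in control, the number higher was 2 without a filter and 1 with the offsets, and the number lower 3 without a filter. In diabetic retinas the number higher was 0 without a filter, with the replicate block and with the offsets. Members that varied over time in control numbered 1 without a filter, 6 with the block and 5 with the offsets, and in diabetic retinas 2 without a filter. Rhythmic members in control were 5 with the fold between time point means, 7 without ZT17 and 4 by adjusted p, and in diabetic retinas 7, 11 and 6. After adjustment, control had 2 without a filter, with the fold between means or with the offsets, 1 without ZT5 or ZT21 and 0 without ZT17. Diabetic retinas had 2 without a filter or without ZT17, 10 with the offsets and 1 without ZT21. The cause was not tested.

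With 1 library left out, the members lower over all time points numbered 2 to 5, most without control ZT9 replicate 3 or ZT13 replicate 2. Midnight against midday gave 0 to 6 higher and 2 to 7 lower in control, fewest without control ZT5 replicate 1, 2 or 6 or ZT17 replicate 1 or 3, and 0 to 1 and 2 to 5 in diabetic retinas, where 5 were lower without ZT5 replicate 4 or ZT17 replicate 1. Over time, 2 to 4 varied in control and 5 to 10 in diabetic retinas, with 5 without ZT17 replicate 4 or 5. Rhythmic members numbered 9 to 18 in control (3 to 4 after adjustment), 18 without ZT9 replicate 4, and 15 to 21 in diabetic retinas (2 to 8 after adjustment), with 2 and 3 without ZT17 replicate 3 and 4. Genotype at single time points, the difference of midnight changes and differential rhythm stayed at 0 to 0.

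Replicate numbers are shared between genotypes, but 20 and not all of the 26 same-numbered pairs had deviations that correlated above 0.1 (median 0.27, lowest -0.46, against a median of -0.072 over 114 pairs of different numbers), and 27 of 52 libraries correlated best with their own number. As no label ties the numbers to a shared litter, batch or day, they were not taken as pairs, although same-numbered libraries correlated more. With a replicate block, 4 members were lower over all time points, 7 were higher and 6 lower at midnight in control, and 8 varied over time in diabetic retinas. Differences within the members' median coefficient of variation of about 10.9% are limited by the 4 to 6 libraries of a group.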
